A study of Arabidopsis thaliana with 6 samples.

Results

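The genes described here are 10 sucrose and hexose proton symporters of *Arabidopsis thaliana*, 4 sucrose carriers (*SUC1* to *SUC4*) and 6 hexose carriers (*STP1*, *STP2*, *STP4*, *STP6*, *STP9* and *STP13*). They were taken from a fixed list of gene identifiers, drawn up with earlier results of these data known. All 10 were found among the 32678 genes of the count files. The libraries are 3 of wild type and 3 of *bpcV*, made from inflorescence apices carrying flowers of stage 12 or younger. Both genotypes are in the Columbia-0 background and were grown without treatment at 20 to 22 °C under 16 h of light and 8 h of darkness. *bpcV* is the quintuple mutant *bpc1-2 bpc2 bpc3 bpc4 bpc6*, in which 5 genes for BASIC PENTACYSTEINE (BPC) transcription factors of class I and class II are mutated, and wild type carries none of these alleles. The comparison asks how the level of each symporter transcript differs in these inflorescences when these BPC genes are mutated.

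Plant cells that cannot fix enough carbon import sugar, and symporters of the plasma membrane do this by coupling the entry of a sugar molecule to the entry of a proton. SUC proteins carry sucrose, the sugar that moves in the phloem, while STP proteins carry glucose and other hexoses that are released when cell wall invertases split sucrose. Anthers and pollen are strong sinks, because developing pollen has no cytoplasmic connection to the surrounding tissue and must take its sugar from the anther fluid. The proton gradient that drives both families is made by plasma membrane proton pumps, the AHA proteins.

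BPC proteins bind DNA rich in GA repeats, so the stretch from 1000 bases before to 100 bases after each annotated gene start was read from the TAIR10.1 genome of RefSeq and searched on both strands. The 6 letters GAGAGA occurred in the stretch of 6 of the 10 symporters, namely *SUC1*, *SUC4*, *STP1*, *STP2*, *STP9* and *STP13*, and in 68.3% of the 20624 stretches of tested genes. The longer GAGAGAGA, every copy of which also holds GAGAGA, occurred at *SUC1*, *SUC4* and *STP9*, and in 23.2% of all stretches. The G-box CACGTG, a common plant transcription factor site, occurred at *SUC1*, *SUC2* and *SUC4*, and in 18.1% of all stretches. A match of letters is a description and was not tested as a binding site. The repeat nearest to the gene start is shown for the 5 symporters in which it lies before the annotated transcript, as 80 bases read 5′ to 3′ along the coding strand, with the repeat in capitals (TCTCTC is the same repeat on the other strand). At *STP1* the repeat begins 88 bases after the gene start, inside the transcript.
*SUC1*, chr1:27053869-27053948, plus strand: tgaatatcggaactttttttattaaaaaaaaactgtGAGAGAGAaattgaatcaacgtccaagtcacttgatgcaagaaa
*SUC4*, chr1:3243762-3243841, plus strand: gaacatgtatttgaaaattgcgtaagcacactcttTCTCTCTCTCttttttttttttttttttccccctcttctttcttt
*STP2*, chr1:2254134-2254213, plus strand: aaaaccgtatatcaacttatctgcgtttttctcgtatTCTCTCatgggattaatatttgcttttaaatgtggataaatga
*STP9*, chr1:18635391-18635470, plus strand: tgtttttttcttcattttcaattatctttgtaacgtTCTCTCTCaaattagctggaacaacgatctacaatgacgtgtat
*STP13*, chr5:9248432-9248511, minus strand: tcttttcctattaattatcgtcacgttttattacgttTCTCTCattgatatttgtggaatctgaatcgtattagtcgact
*SUC4* holds the longest run of these, 10 bases, against 8 at *SUC1* and *STP9* and 6 at *STP2* and *STP13*. Relative to the gene start, the capitals begin at -125 for *SUC1*, -189 for *SUC4*, -651 for *STP2*, -528 for *STP9* and -934 for *STP13*.

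Library totals ranged from 16196042 to 21455150 expected counts, the read numbers that RSEM assigns to genes, and these libraries are called biological replicates in the study's methods. On the first principal component of log2 CPM (counts scaled to the library total), with 56.3% of the variance, the genotypes were apart, and on the second, with 20.3%, the *bpcV* libraries were spread. Replicates 1, 2 and 3 of *bpcV* stood at 46.8, 32.2 and 27.1 on the first component, against -38.1 to -33.1 in wild type. Replicate 3 was thus the *bpcV* library nearest to wild type on it. The transcripts of *BPC1*, *BPC2*, *BPC6* and *BPC4* fell, with log2 fold changes of -5.25, -4.43, -4.48 and -0.62 in *bpcV* relative to wild type, while *BPC3* had one of 0.38 with an adjusted p of 0.292. The flower genes *PI* and *SEP3*, which specify petals, stamens and the inner whorls, were present in every library at 207 to 297 and 173 to 245 TPM, the transcript level that RSEM scales for gene length and library. Fewer cells of a type and less RNA per cell cannot be told apart in such bulk samples.

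All 6 hexose symporters had lower mean levels in *bpcV*, while of the 4 sucrose symporters 3 were higher and *SUC2* was slightly lower. No single member passed the study's threshold in the quasi-likelihood fit made here. That fit called fewer genes than the paper reports for its named test and threshold. The authors' own results for the 10 genes were not used. All 10 had enough counts to be tested. edgeR's quasi-likelihood test called 0 of the 10 at a Benjamini-Hochberg adjusted p (FDR) of 0.01 or less, against 3.89% of the 20813 genes tested, 2.23% being lower in *bpcV* and 1.66% higher. At an unadjusted p under 0.05, 8 of the 10 passed, against 28.3% of all genes, and at an FDR of 0.05 or less *STP9* and *STP13* passed, 2 of 10 against 12.0%. At the threshold of 0.01 DESeq2 called the same 2 genes, against 8.72% of all genes, and edgeR's likelihood ratio test called *STP2*, *STP9* and *STP13*, against 10.7%. The genotypes did not overlap in CPM for 5 of the 10 genes that were lower in *bpcV*, against 17.6% of all genes, and for 2 that were higher, against 18.2%. The median log2 fold change, *bpcV* relative to wild type throughout, was -0.34 over the 10 members, -0.73 over the 6 *STP* members and 0.17 over the 4 *SUC* members, beside 0.01 over all genes tested. The members were a list chosen with earlier results of these data known, so these shares and medians carry no test. The smallest p that an exact permutation test allows for 3 libraries against 3 is 0.1.

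Read per length, as TPM, *SUC2* was the most abundant of the 10 in wild type, at 122 ± 3.1 (mean ± SD, n = 3 here and below), and *STP2* the least, at 10.5 ± 3.45. *STP1* at 87.7 ± 13.3 and *SUC1* at 78.6 ± 5.92 came next and overlapped in their ranges. *STP13* followed alone at 39.1 ± 1.13, then *STP9* at 26.6 ± 4.93 and *STP4* at 23.1 ± 0.813, which overlapped. The ranges of *SUC3*, *SUC4*, *STP6* and *STP2*, from 13.4 ± 0.907 down to *STP2*, overlapped each with its neighbour in the order. In *bpcV*, *SUC2* was again first at 119 ± 14.1, but *SUC1* at 93.4 ± 2.09 stood above *STP1* at 65.8 ± 3.43 with no overlap. *STP9* moved from rank 5 in wild type to rank 8 in *bpcV* at 12.6 ± 5.44, where its range overlapped those of *SUC3* and *STP6*.

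**Figure D1:**
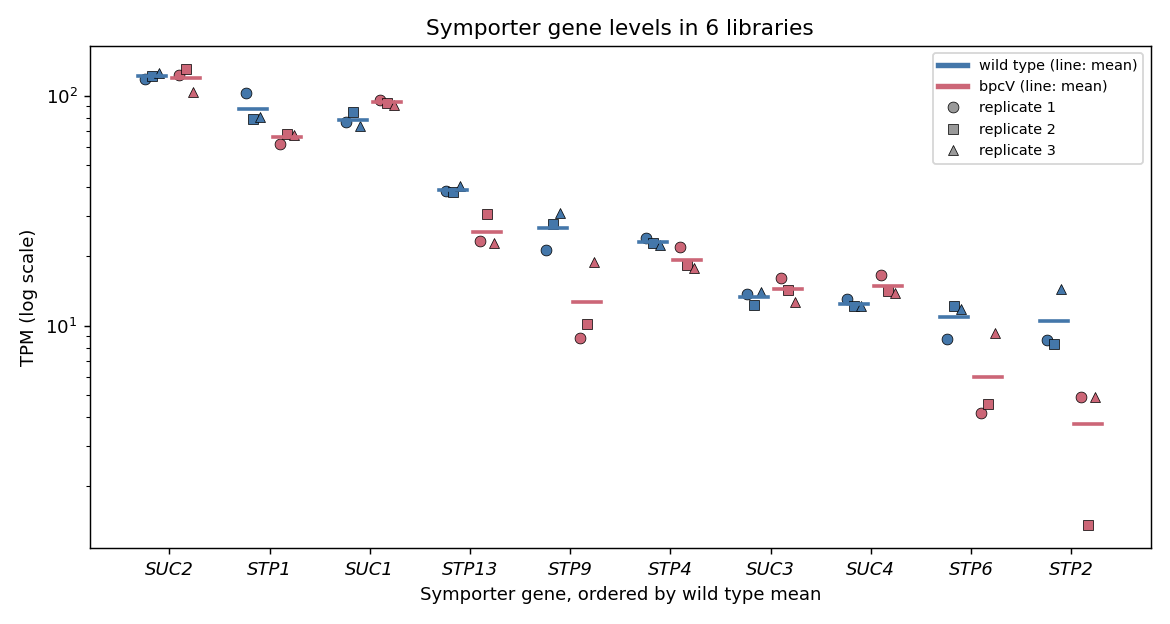
Level of each of the 10 symporters in the 6 libraries, in TPM on a log axis, with genes ordered by wild type mean. Points are libraries (blue, wild type; red, *bpcV*) and lines are means of 3; *STP13* in *bpcV* lay between 22.8 and 30.5, below the 38.3 to 40.4 of wild type, whereas *SUC2* overlapped.

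*SUC1* encodes a plasma membrane sucrose symporter known from pollen and roots, and *SUC2* the companion cell symporter that loads sucrose into the phloem. *SUC1* (AT1G71880, chromosome 1, 27054030 to 27056464, plus strand, 3 exons) measured 76.7, 85.2 and 73.8 TPM in wild type and 95.5, 93.4 and 91.4 in *bpcV*, from 2023 to 2777 counts a library. All *bpcV* libraries were above all wild type libraries, by a log2 fold change of 0.24 (SE 0.0904, 95% interval 0.03 to 0.45, FDR 0.125). *SUC2* (AT1G22710, chromosome 1, 8030587 to 8033156, minus strand, 4 exons) measured 118, 122 and 125 TPM in wild type and 123, 131 and 104 in *bpcV*. The genotypes overlapped, *bpcV* replicate 3 being the lowest of the 6 libraries. The log2 fold change of *SUC2* was -0.04 (SE 0.098, 95% interval -0.26 to 0.19, FDR 0.845), and without *bpcV* replicate 3 it was 0.05 (FDR 0.781). The ratio of *SUC1* to *SUC2* TPM was 0.592 to 0.701 in wild type and 0.713 to 0.882 in *bpcV*, ranges that nearly touched.

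*SUC3* encodes a sucrose symporter of sieve elements and sink cells, and *SUC4* one of the vacuolar membrane that releases sucrose from the vacuole. *SUC3* (AT2G02860, chromosome 2, 828279 to 832619, minus strand, 14 exons, *SUT2* in RefSeq) measured 13.7, 12.3 and 14 TPM in wild type and 16.1, 14.3 and 12.7 in *bpcV*. The genotypes overlapped, with a log2 fold change of 0.09 (SE 0.103, 95% interval -0.14 to 0.33, FDR 0.599). *SUC4* (AT1G09960, chromosome 1, 3243986 to 3247216, plus strand, 6 exons, *SUT4* in RefSeq) measured 13.0, 12.2 and 12.2 TPM in wild type and 16.6, 14.1 and 13.8 in *bpcV*. For *SUC4* the lowest *bpcV* value was above the highest of wild type, and the log2 fold change of 0.24 (SE 0.0973, 95% interval 0.02 to 0.46) had an FDR of 0.151. None of the 4 sucrose symporters was called by any of the 15 alternative fits, and the lowest FDR among them was 0.102, for *SUC1* without *bpcV* replicate 1.

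*STP1*, a broadly expressed hexose symporter known from guard cells, seeds and roots, and *STP4* of sink tissues were both lower on average in *bpcV*. *STP1* (AT1G11260, chromosome 1, 3777236 to 3780823, plus strand, 4 exons) measured 103, 79.2 and 80.9 TPM in wild type and 61.9, 68.1 and 67.5 in *bpcV*. The genotypes did not overlap, wild type replicate 1 stood highest, and the log2 fold change was -0.42 (SE 0.117, 95% interval -0.69 to -0.15, FDR 0.0527). Without wild type replicate 1 it was -0.29 with an FDR of 0.167. *STP4* (AT3G19930, chromosome 3, 6934568 to 6937197, plus strand, 5 exons) measured 24.0, 22.8 and 22.4 TPM in wild type and 22.0, 18.3 and 17.8 in *bpcV*. The highest *bpcV* library lay just under the lowest of wild type, and the log2 fold change was -0.26 (SE 0.0981, 95% interval -0.49 to -0.04, FDR 0.121). The annotated span of *STP1* overlaps AT1G11270 by 438 bp, and reads in such stretches may come from either gene, since the strandedness of the libraries is not given in the sources used here.

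*STP13*, a hexose symporter induced by pathogens and other stresses, came nearest to the threshold. *STP13* (AT5G26340, chromosome 5, 9243398 to 9247540, minus strand, 4 exons, *MSS1* in RefSeq) measured 38.5, 38.3 and 40.4 TPM in wild type and 23.4, 30.5 and 22.8 in *bpcV*, from 604 to 1273 counts a library. The wild type libraries lay close together, and all 3 *bpcV* libraries were below them, replicate 2 least so. The log2 fold change was -0.62 (SE 0.118, 95% interval -0.89 to -0.35, FDR 0.0135), which puts the *bpcV* level at 65.1% of wild type. The FDR of *STP13* ran from 0.000181 with the likelihood ratio test to 0.0615 without wild type replicate 3. It was 0.01 or less in 4 of the 15 alternatives: DESeq2, library totals without factors, the likelihood ratio test, and the fit without *bpcV* replicate 2, where it was 0.00223.

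*STP2*, *STP6* and *STP9* are known from the male lineage, *STP2* from young microspores, *STP6* from late pollen and *STP9* as a glucose carrier of pollen. They had the largest differences of the 10 and also the widest spread between *bpcV* libraries relative to their means. *STP9* (AT1G50310, chromosome 1, 18635955 to 18638449, plus strand, 4 exons) measured 21.3, 27.6 and 31.0 TPM in wild type and 8.79, 10.2 and 18.9 in *bpcV*, from 171 to 659 counts a library. The genotypes did not overlap, but *bpcV* replicate 3 lay close to the lowest wild type library. The log2 fold change of *STP9* was -1.07 (SE 0.277, 95% interval -1.7 to -0.43, FDR 0.0417). Of the 15 alternatives 3 called it: DESeq2 at 0.000998, the likelihood ratio test, and the fit leaving out *bpcV* replicate 3, which gave a log2 fold change of -1.5 and an FDR of 0.00842. The highest FDR was 0.142, without wild type replicate 3. Its annotated span overlaps AT1G50320 by 66 bp.

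*STP2* (AT1G07340, chromosome 1, 2254822 to 2256850, plus strand, 4 exons) measured 8.65, 8.32 and 14.4 TPM in wild type and 4.91, 1.35 and 4.89 in *bpcV*. All *bpcV* libraries were below wild type, and replicate 2 stood far below the others with 31 counts (95% Poisson interval 21.1 to 44.0, which covers counting error only) against 105 and 127. The log2 fold change of -1.49 (SE 0.408, 95% interval -2.42 to -0.55) was the largest of the 10 in size, with an FDR of 0.0504. Without *bpcV* replicate 2 it was -1.09, and the FDR of *STP2* ran over the alternatives from 0.00637 with the likelihood ratio test, its only call, to 0.178 without wild type replicate 3.

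*STP6* (AT3G05960, chromosome 3, 1783388 to 1785495, minus strand, 3 exons) measured 8.7, 12.2 and 11.8 TPM in wild type and 4.15, 4.56 and 9.27 in *bpcV*. It was the only *STP* member whose genotypes overlapped, since *bpcV* replicate 3 exceeded wild type replicate 1. Its log2 fold change was -0.85 (SE 0.302, 95% interval -1.54 to -0.16, FDR 0.11), and without *bpcV* replicate 3 it was -1.33 with an FDR of 0.0144. The ratio of *STP6* to *STP9* TPM had a narrow range in each genotype, 0.38 to 0.441 in wild type and 0.447 to 0.492 in *bpcV*. These ranges nearly touched, and counting error limits them. *STP6* had 79 and 93 counts in *bpcV* replicates 1 and 2 (95% Poisson intervals 62.5 to 98.5 and 75.1 to 114). A difference in this ratio was not tested. The ratio of *STP2* to *STP9* varied more, from 0.301 to 0.466 in wild type and from 0.132 to 0.559 in *bpcV*.

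Markers of the tapetum, the anther layer that feeds the microspores, were read in the same libraries. Their summed level was 3080 to 4230 TPM in wild type and 1740, 1640 and 3130 TPM in *bpcV* replicates 1, 2 and 3, or 50.0%, 47.2% and 90.0% of the wild type mean, so the genotypes overlapped through replicate 3. *STP9* stood at 33.0%, 38.3% and 70.8% of its wild type mean in these 3 libraries, and *STP6* at 38.1%, 41.9% and 85.1%. In both, as in the tapetum sum, replicate 3 was the closest to wild type. That library was also the nearest to wild type on the first principal component of all genes tested, so this likeness was not particular to these genes. *STP2* stood at 46.9%, 12.9% and 46.7%, so its replicate 3 was not set apart in this way. The tapetum sum rests largely on *GRP19*, *GRP17* and *ATA20*, the last named after its values were seen. Their wild type means were 926, 925 and 708 TPM, of 3480 TPM for the whole list. In *bpcV* replicates 1, 2 and 3 *GRP17* stood at 15.6%, 56.9% and 93.8% of its wild type mean. *GRP19* stood at 79.9%, 36.6% and 94.6%. Replicates 1 and 2 were thus in opposite order in these genes, and their near-equal sums do not hold gene by gene.

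The genotypes overlapped for 15 of the 20 tapetum genes that were tested, of 22 in the list. The other 5 were lower in *bpcV* without overlap, against 17.6% of all genes tested. All 20 had a log2 fold change below 0, against 48.5% of all genes tested, with a median of -0.54. The quasi-likelihood test called 0 at an FDR of 0.01, against 3.89% of all genes. An unadjusted p under 0.05 was reached by 8, against 28.3%, and an FDR of 0.05 or less by 4, against 12.0%. *GRP17*, a pollen coat oleosin and the list's most abundant gene together with *GRP19*, measured 903, 856 and 1020 TPM in wild type and 144, 526 and 867 in *bpcV*. *GRP19*, another pollen coat oleosin, measured 808, 855 and 1110 TPM against 739, 339 and 876. Both overlapped between the genotypes. The early tapetum regulator *DYT1* was at 0 in 3 libraries, wild type replicates 1 and 3 and *bpcV* replicate 3, and had 1 count in each of the others. *TDF1* was at 0 in *bpcV* replicate 2. The 16 pollen markers, in contrast, summed to 2410 to 2520 TPM in wild type and 2290 to 2970 in *bpcV*, with 9 lower, 7 higher, a median log2 fold change of -0.06, none at 0, 0 called at either 0.01 or 0.05 and 3 at an unadjusted p under 0.05. *VGD1*, a pectin methylesterase of the pollen tube, had a log2 fold change of -0.06 and *AGP11*, an arabinogalactan protein of pollen, one of 0.17. The part of the tapetum markers in the values of *STP2*, *STP6* and *STP9* was not tested.

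**Figure D2:**
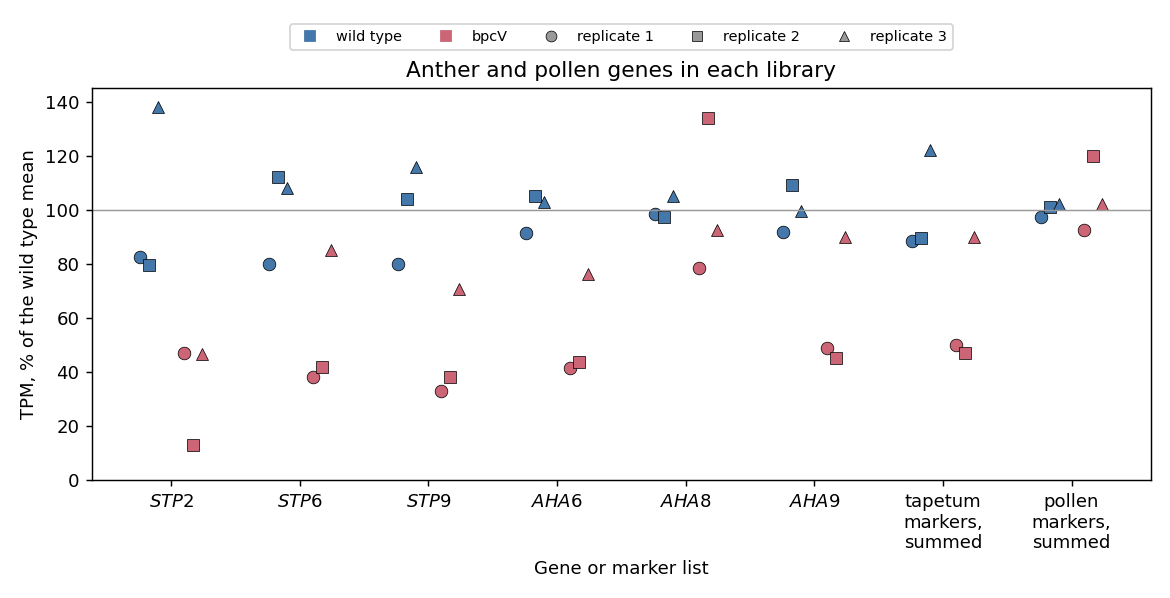
TPM in each library as a percentage of the wild type mean (grey line, 100%) for *STP2*, *STP6*, *STP9*, the proton pump genes *AHA6*, *AHA8* and *AHA9*, and the summed tapetum and pollen marker lists. Squares, circles and triangles are replicates; *bpcV* replicate 3 lies at 70.8% for *STP9* and 85.1% for *STP6*, above the other *bpcV* libraries, while *AHA8* and the pollen sum have *bpcV* libraries on both sides of the line.

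Within the *STP* family the balance between genes differed. Summed over the 6 *STP* members, the level was 204, 188 and 201 TPM in wild type and 125, 133 and 141 in *bpcV*, with no overlap. Over all 14 *STP* genes it was 309 ± 13.7 against 269 ± 24.8 TPM, and here *bpcV* replicate 2 overlapped wild type. The 4 *SUC* members summed to 222, 231 and 225 TPM in wild type and 251, 253 and 221 in *bpcV*, which overlapped. *STP1* made up 25.8 to 32.3% of the summed *STP* TPM in wild type and 23.1 to 25.3% in *bpcV*, and *STP13* 12.1 to 13.1% and 8.51 to 10.4%. *STP3* made up 3.52 to 3.64% in wild type and 7.1 to 7.83% in *bpcV*.

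Of the 13 *SUC* and *STP* genes outside the list 11 were tested, *SUC8* and *STP8* having too few counts. *SUC7* fell, *STP3* and *STP12* rose, and the other 8 did not pass the threshold. Over all genes tested, 2.23% passed it lower in *bpcV* and 1.66% higher. *STP3*, a monosaccharide carrier of green tissue, was at 11.0 ± 0.575 TPM in wild type (281 to 363 counts) and 20.0 ± 2.86 in *bpcV* (443 to 628 counts). Every *bpcV* library was above wild type, by a log2 fold change of 0.86 (SE 0.118, FDR 0.00366). *STP12*, a carrier described at nematode feeding sites, had 264, 238 and 211 counts against 330, 379 and 379. Its genotypes did not overlap either, and its log2 fold change was 0.67 (SE 0.104, FDR 0.00594). Of the 15 alternatives 10 called *STP3* and 9 *STP12*. With each wild type replicate or *bpcV* replicate 3 left out, the FDR of *STP3* rose to between 0.0164 and 0.03, and with any library but *bpcV* replicate 1 left out, that of *STP12* rose to between 0.0136 and 0.0377. The annotated span of *STP12* overlaps AT4G21470 by 20 bp. *STP7* and the pollen tube carrier *STP11*, named after their values were seen, had log2 fold changes of 0.38 (FDR 0.0581) and 0.02 (FDR 0.962).

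*SUC7*, described as a pseudogene in Columbia-0, was counted 68, 46 and 55 times in the wild type libraries and 4, 6 and 1 times in those of *bpcV*. The log2 fold change of *SUC7* was -3.82 (SE 0.407, FDR 0.00129), the largest of both families, and it was called in 13 of 14 alternatives, with an FDR of 0.0102 without wild type replicate 1. The gene lies 688854 bp from *BPC3*, one of the mutated loci, and whether its position bears on its level was not tested. Several *SUC* genes are close copies of one another, so the counts of *SUC7* are uncertain in this respect. The expected counts of all *SUC* and *STP* genes were whole numbers in every library, and sharing of reads between copies was not tested. *SUC5*, which lies 1916 bp from *SUC1*, was named after its value was seen and had a log2 fold change of 0.77 with an FDR of 0.0392.

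**Figure D3:**
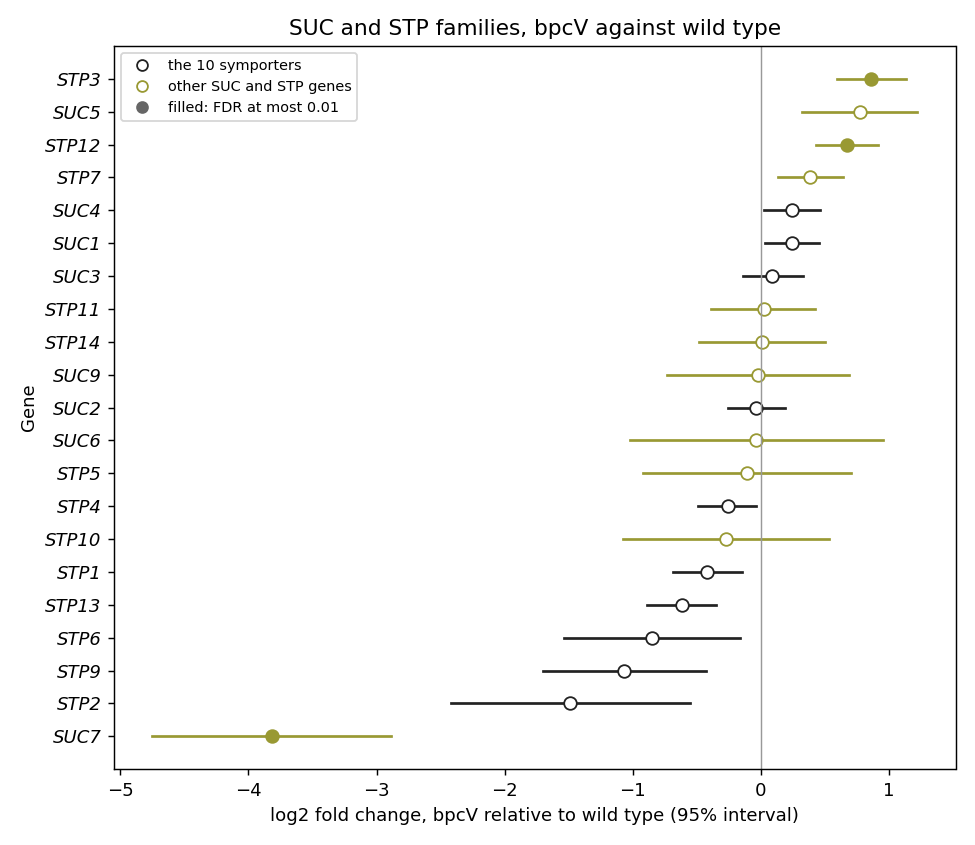
Log2 fold change of each tested *SUC* and *STP* gene, *bpcV* relative to wild type, with its 95% interval. Black marks the 10 symporters and olive the others, filled circles having an FDR of 0.01 or less (*STP3*, *STP12* and *SUC7*); the 6 *STP* members all lie left of 0, from -0.26 to -1.49.

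Of 46 other genes for sugar handling, 44 were tested, 1 fell and 1 rose, against 2.23% and 1.66% of all genes tested. *INT2*, an inositol symporter of the plasma membrane, measured 10.5, 11.8 and 10.3 TPM in wild type and 31.9, 42.5 and 32.8 in *bpcV*. It rose by a log2 fold change of 1.71 (SE 0.134, FDR 0.000423) and was called in all 15 alternatives. *PLT6*, a member of the polyol transporter family, measured 3.15, 2.55 and 2.91 TPM against 1.15, 1.49 and 1.28. *PLT6* fell by 1.14 on the log2 scale (SE 0.19, FDR 0.00811), without overlap, and was called in 6 of the 15 alternatives, none of them with a library left out (FDR 0.0131 to 0.0429). Both belong to the 18 tested monosaccharide and polyol carriers, whose median log2 fold change was 0.04.

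Enzymes of sucrose cleavage and hexose phosphorylation were not called. The shares of all genes tested were 3.89% at an FDR of 0.01, 12.0% at 0.05 and 28.3% at an unadjusted p under 0.05. Of 7 tested invertases 0 passed the quasi-likelihood test at an FDR of 0.01, 0 at an FDR of 0.05 and 2 at an unadjusted p under 0.05, with a median log2 fold change of 0.14. Of 8 sucrose synthases and hexokinases 0 passed at 0.01, 3 at an FDR of 0.05, and 4 at an unadjusted p under 0.05. The 3 are sucrose synthase genes, named after their values were seen, *SUS1* with a log2 fold change of 0.59 (FDR 0.0277), *SUS3* with -0.82 (FDR 0.0201) and *SUS4* with -1.22 (FDR 0.0414).

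Of the 11 plasma membrane proton pumps 0 were called, 2 had an FDR of 0.05 or less and 3 an unadjusted p under 0.05. The shares of all genes tested were 3.89%, 12.0% and 28.3%. The median log2 fold change of the pumps was 0.01. Among the pumps known from anthers and pollen are *AHA6*, *AHA8* and *AHA9*, all named after their values were seen and not a full list of such pumps. *AHA8*, the most abundant of them, measured 156, 154 and 165 TPM in wild type and 124, 211 and 146 in *bpcV*, which overlapped, with a log2 fold change of 0.01 (FDR 0.976). *AHA6* and *AHA9* measured 34.1, 39.2 and 38.6 and 47.5, 56.5 and 51.5 TPM in wild type. In *bpcV* replicates 1, 2 and 3 *AHA6* stood at 41.4%, 43.6% and 76.3% of its wild type mean and *AHA9* at 49.0%, 45.0% and 90.0%, so replicate 3 was closest to wild type, as for *STP6* and *STP9*, whereas *AHA8* was highest in replicate 2. The log2 fold changes of *AHA6* and *AHA9* were -0.9 (FDR 0.0378) and -0.72 (FDR 0.106).

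Phloem markers were read beside *SUC2* and *SUC3*. The 12 genes summed to 281 to 299 TPM in wild type and 330 to 406 in *bpcV*, none was at 0, and the median log2 fold change was -0.03. *PP2-A1*, a phloem lectin and the most abundant of the list, was the 1 call, measuring 96.6, 94.7 and 88.8 TPM in wild type and 151, 194 and 158 in *bpcV*. It rose by a log2 fold change of 0.84 (SE 0.113, FDR 0.00344), while the phloem proton pump *AHA3*, next in abundance, had one of 0.09 and overlapped. Without *PP2-A1* the other 11 genes summed to 202, 186 and 197 TPM in wild type and 180, 212 and 191 in *bpcV*, which overlapped. At an unadjusted p under 0.05 there were 4 phloem genes, *PP2-A1* and 3 that were lower in *bpcV*, named after their values were seen. These were the sieve element protein genes *SEOR1* (log2 fold change -0.27, FDR 0.114) and *SEOR2* (-0.24, FDR 0.0892) and the sieve element regulator *NAC086* (-1.07, FDR 0.131). The part of the phloem markers in the values of *SUC2* and *SUC3* was not tested. The 8 inflorescence and flower markers summed to 876 to 887 TPM in wild type and 873 to 1080 in *bpcV*, and none was at 0. Of these 0 were called, 1 had an FDR of 0.05 or less and 3 an unadjusted p under 0.05. The shares of all genes tested were 3.89%, 12.0% and 28.3%.

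Whether a hexose symporter passed 0.01 depended on the test, the scaling and the libraries included. *STP2*, *STP9* and *STP13* were each called in at least 1 alternative, while *STP1*, *STP4* and *STP6* reached 0.0163, 0.0153 and 0.0144 at the lowest and were not called. The 6 *STP* members kept a negative log2 fold change, and *SUC1*, *SUC3* and *SUC4* a positive one, in all 15 alternatives. These are refits of the same 6 libraries and add no independent evidence of direction. For members whose genotypes did not overlap, leaving out 1 library could hardly turn the sign.

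**Figure D4:**
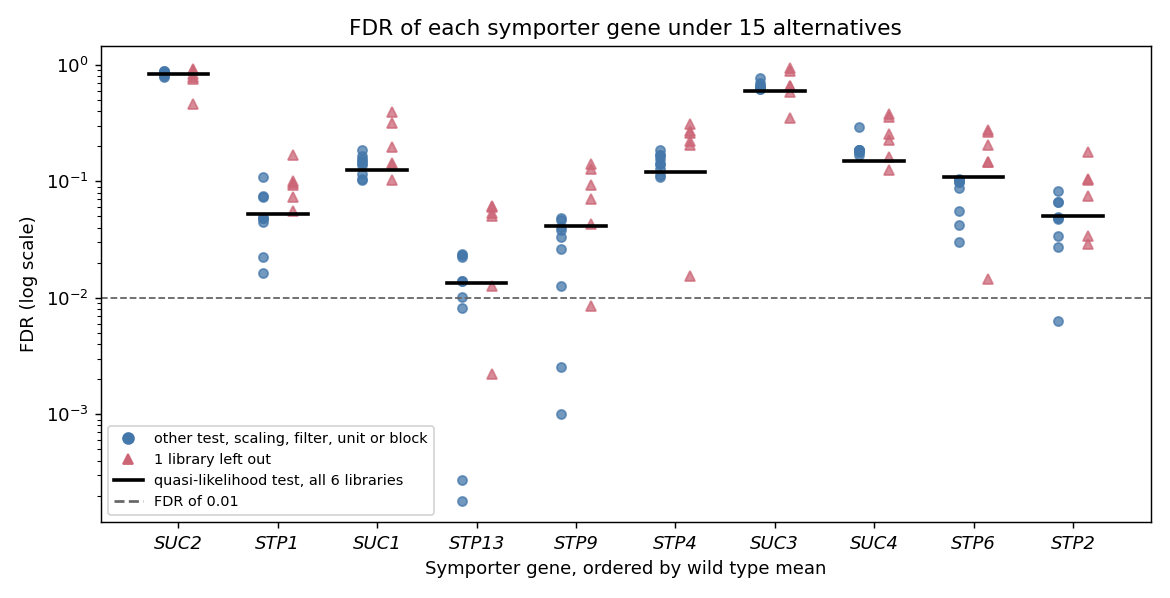
FDR of each symporter under 15 alternative fits, on a log axis with the threshold of 0.01 dashed. Black lines are the quasi-likelihood test on 6 libraries, circles other tests, scalings, filters, units or the block, and triangles fits with 1 library left out; points of *STP13* (4), *STP9* (3) and *STP2* (1) lie under the dashed line.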

How the data were processed

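Poly-A selected RNA of 3 wild type and 3 *bpcV* samples was sequenced with paired-end reads. The authors used bowtie2 to align them to transcripts of the TAIR10 annotation, then RSEM, and deposited its expected counts per gene, which are not normalized. The deposited TPM values are scaled by RSEM for effective gene length and library total. A deposited table of the authors' edgeR results, with log2 fold changes, p-values and FDR values, was not used.

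After rounding, low genes were dropped by filterByExpr (at least 10 counts, at least 15 in total) and TMM factors were applied. R 4.3.3 ran edgeR 4.0.16 (quasi-likelihood test) on genotype alone, with Benjamini-Hochberg adjustment over all genes tested, threshold 0.01. The SE is the absolute log2 fold change divided by the square root of F, and 95% intervals use the t distribution. Alternatives used DESeq2 1.42.0, limma 3.58.1 on log2(TPM + 1) or log2(TPM + 0.1) with a mean TPM of at least 1, other scalings, filters and thresholds, the replicate number as a block, and each library left out. Python 3.11.15 and matplotlib 3.10.9 were used for summaries and figures.

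Positions and sequences are from TAIR10.1, which held 31912 of the 32678 identifiers, and the deposited files carry no coordinates. Its gene models may differ from those used for counting.

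The members and lists were chosen with earlier results of these data known. All 10 members are named in full. Other family and sugar genes are named where the FDR was 0.01 or less, at most 6 a list, and each marker list by its 2 most abundant genes. Genes most like a member were to be named for members past the threshold, and there were none. Genes outside this rule are said to be chosen after their values were seen, except *DYT1* and *TDF1*, named for their zeros.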

Additional observations from a re-analysis of the deposited data

How the results depend on the processing

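The number of genes called, 809, became 1814 with DESeq2, 2233 with the likelihood ratio test, 532 with limma on log2(TPM + 0.1), 2506 at an FDR of 0.05, 434 with a log2 fold change of 1 or more in size, and 167 to 1249 with 1 library left out. Members called lower, 0 of 10, became 2 with DESeq2, 1 with library totals without factors, 3 with the likelihood ratio test, 2 at an FDR of 0.05 and 0 to 1 with 1 library left out, and no alternative called a member higher. The other *SUC* and *STP* genes called lower, 1, became 0 with at least 10 counts in every library, where *SUC7* is not tested, and 0 to 1 with 1 library left out. Those called higher, 2, became 0 with a log2 fold change of 1 or more in size and 0 to 2 with 1 library left out. Sugar genes called lower, 1, became 4 with DESeq2, 6 with the likelihood ratio test, 0 with limma on either TPM scale, 6 at an FDR of 0.05 and 0 to 2 with 1 library left out, and those called higher, 1, became 2 with DESeq2, 2 with the likelihood ratio test, 3 at an FDR of 0.05 and 1 to 2 with 1 library left out. *SUC2* turned to a log2 fold change of 0.05 without *bpcV* replicate 3, its leave-one-out range being -0.11 to 0.05. Except for *SUC7*, the cause was not tested. No scaling moved the median log2 fold change of all genes by over 0.1, and the wild type order of the members was the same by counts per kilobase.

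Same-numbered libraries did not all deviate together (r = -0.0193, -0.0129 and 0.177 over genes for replicates 1, 2 and 3), so the numbers were not taken as pairs. Of all 9 combinations the highest was that of both replicates 3, while wild type replicates 1 and 2 correlated best with *bpcV* replicates 2 (r = 0.133) and 1 (r = 0.0359). With the replicate number as a block 408 genes were called, 0 members, 0 other *SUC* and *STP* genes higher and 0 sugar genes lower.

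Among the members, depth limits *STP2* most, with 31 counts in *bpcV* replicate 2.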
